A study of Mus musculus with 31 samples.

Results

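The mouse mitochondrial genome encodes 37 genes, whose symbols begin with mt-: 13 genes for proteins, 2 for ribosomal RNAs and 22 for transfer RNAs. All 37 were found by symbol among the 52636 genes measured in caudate putamen (CPu), the dorsal part of the striatum. Brd1 encodes a chromatin scaffold protein of histone acetyltransferase complexes, and the study compared female mice heterozygous for a targeted deletion within Brd1 (Brd1+/-, strain C57BL/6NTac-Brd1) with WT mice of the same background, with and without imipramine (IMN), a tricyclic antidepressant. The 4 groups are called WT vehicle (saline, n = 8), Brd1+/- vehicle (n = 7), WT IMN (10 mg/kg, n = 8) and Brd1+/- IMN (the same dose, n = 8). All 31 mice were 8 to 11 weeks old, were injected subcutaneously on consecutive days, went through tail suspension, open field and forced swim tests, and gave tissue punched from the right CPu. The deleted allele came from a vector with loxP sites around exons of Brd1, no cell type-specific Cre driver is named for these mice, and each mouse is its own sample in the labels.

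Mitochondrial DNA is a small circle present in many copies per cell. Both of its strands are transcribed into long precursors that span several genes, and most protein and ribosomal RNA genes are bounded by transfer RNA genes whose excision releases the mature RNAs. The 13 proteins are core subunits of complexes I, III, IV and V of oxidative phosphorylation, which in neurons supplies most ATP, and all other subunits, the transcription machinery and the mitochondrial ribosome proteins are encoded in the nucleus.

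Levels were TPM, which corrects for gene length and sums to nearly the same total in each mouse, so a level can be compared between genes while a higher share of 1 gene lowers that of the rest. Brd1 itself measured 22.5 ± 2.97 TPM in WT vehicle and 13.4 ± 2.02 TPM in Brd1+/- vehicle mice (SD, n = 8 and 7), with no overlap (two-sided exact permutation test, p = 0.000155). Under IMN it was 19.9 ± 2.67 and 12.7 ± 1.04 TPM (two-sided exact permutation test, n = 8 and 8, p = 0.000155). Under both treatments every Brd1+/- mouse had less Brd1 RNA than every WT mouse.

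Punch composition differed between mice. The mean log2(TPM + 1) of 10 markers of cortical excitatory neurons lay between 5.37 and 6.43 in WT vehicle mice 1 to 5 and 7, and at 1.62 and 1.64 in mice 6 and 8. It ranged over 2.01 to 3.84 for Brd1+/- vehicle, 1.73 to 5.50 for WT IMN and 1.77 to 4.32 for Brd1+/- IMN. The 10 markers of striatal spiny neurons ran from 3.20 to 9.16 in WT vehicle mice and from 8.16 to 9.10 in all other mice, so the labeled tissue was marked in every group but unevenly in the WT vehicle group. Summed, the cortical markers held a median of 1638 TPM (118 to 2324) in WT vehicle mice against medians of 185 to 251 TPM in the other groups, and none of them was under 0.1 TPM in all mice of a group. Group means of the other 6 marker lists lay between 5.70 and 5.94 for astrocytes, 7.97 and 8.44 for oligodendrocytes, 4.46 and 4.61 for microglia, 3.92 and 4.01 for endothelium, 4.72 and 5.33 for erythroid cells, and 0.38 and 0.63 for choroid plexus and ependyma. Single mice spread more than these means. In WT vehicle mice the astrocyte level ran from 5.30 to 6.70 and the oligodendrocyte level from 7.30 to 9.92. In Brd1+/- IMN mice the oligodendrocyte level ran from 7.02 to 9.54. Vehicle administered WT mouse 7, labeled female, held 26.8 TPM of 4 Y-linked genes, where the other 30 mice held at most 0.19 TPM. In tissue punches, fewer cells of a type and less RNA per cell cannot be told apart.

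TPM were also listed for nuclear pseudogenes that match mitochondrial genes, insertions of mitochondrial DNA into chromosomes, and which of the loci their reads came from was not tested. A cluster of 7 such pseudogenes lies on the minus strand of chromosome 1 (GRCm38, from chr1:24611535-24612410, Gm28439, to chr1:24615706-24616197, Gm29216). Placed on its mitochondrial gene without gaps, Gm10925 was identical to mt-Atp6 over 678 bases, Gm28661 to mt-Co2 over 681 bases, Gm28437 to mt-Co3 over 783 bases, Gm10222 to mt-Nd4l over 294 bases and Gm28439 to the first 876 bases of mt-Nd4. These identical stretches are longer than the reads of 50 bases, so a read from them carries no base that tells gene from copy. The remaining 2 copies differ at few positions of the stretch they share with their gene, all near its start, which is printed for that reason. Gm29216 covers only positions 1054 to 1545 of mt-Co1, so reads from the rest of that gene carry other sequence. Below are the first 80 bases of mt-Nd3 and of Gm28438, which differ by T3C alone, and 80 bases of mt-Co1 from position 1054 beside Gm29216, which differ there by T1056A, C1057T, A1059G, A1060G, C1062A and A1066T. Positions count from 1 at the first base of the mitochondrial gene, the mitochondrial base stands first, capitals mark the bases that differ, and the sequences are GENCODE M21 transcripts on GRCm38.
mt-Nd3: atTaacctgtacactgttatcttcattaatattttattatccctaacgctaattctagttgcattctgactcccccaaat
Gm28438: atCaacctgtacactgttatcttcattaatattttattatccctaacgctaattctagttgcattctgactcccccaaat
mt-Co1: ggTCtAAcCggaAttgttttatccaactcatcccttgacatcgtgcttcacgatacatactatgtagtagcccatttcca
Gm29216: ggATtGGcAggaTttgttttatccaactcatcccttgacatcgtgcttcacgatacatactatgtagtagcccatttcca

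The levels of gene and copy ran together. Across the 31 mice the ratio of copy to gene TPM was 1.00 to 1.00 for Gm28661 and mt-Co2 and for Gm28437 and mt-Co3, 1.03 to 1.04 for Gm10925 and mt-Atp6, 1.02 to 1.02 for Gm28438 and mt-Nd3, and 1.01 to 1.02 for Gm10222 and mt-Nd4l. It was lower and wider for Gm28439 and mt-Nd4 (0.593 to 0.798) and for Gm29216 and mt-Co1 (0.743 to 1.07), the pairs in which the copy covers only part of the gene. The fold change of a copy is thus no second measurement of its gene. In all, 10 of the 37 mitochondrial genes shared at least 1 stretch of 50 bases with an annotated nuclear transcript, and the 14 genes sharing one held 10.2 to 16.4% of TPM. mt-Nd1, mt-Nd6, mt-Cytb, mt-Atp8, mt-Rnr1 and all 22 tRNA genes shared none.

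**Figure D1:**
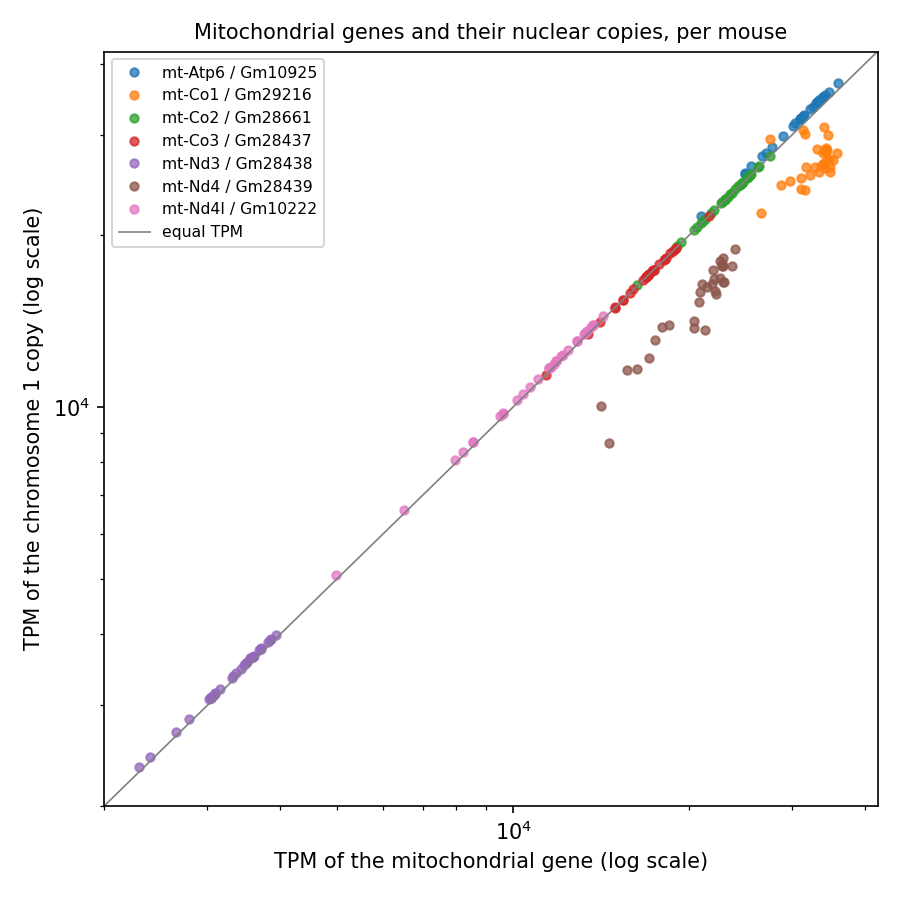
TPM of 7 mitochondrial genes (horizontal axis, log scale) and of their chromosome 1 copies (vertical axis, log scale), 1 point per mouse for 31 mice, with the line of equal TPM. Of the 7 pairs, 5 lie on or just above the line, and mt-Nd4 with Gm28439 lies below it, at a mean ratio of 0.741.

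The tRNA genes at p under 0.01 in a comparison below, alternative settings aside, are mt-Tm (methionine), mt-Tq (glutamine), mt-Tw (tryptophan), mt-Td (aspartate), mt-Tl1 and mt-Tl2 (leucine), mt-Tr (arginine) and mt-Ts2 (serine). With lengths of 59 to 75 bases they are little longer than a read, and fragments of precursors that run across a tRNA gene can be counted with it. The transcripts of those that passed in the WT comparisons are shown with the anticodon in capitals, to show how short they are; mt-Tq and mt-Tm lie before mt-Nd2 and mt-Tw after it, and mt-Tq is on the opposite strand. All are from GENCODE M21 on GRCm38.
mt-Tl1: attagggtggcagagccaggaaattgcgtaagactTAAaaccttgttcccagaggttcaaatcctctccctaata
mt-Tq: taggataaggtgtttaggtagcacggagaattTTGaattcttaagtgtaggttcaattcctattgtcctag
mt-Tm: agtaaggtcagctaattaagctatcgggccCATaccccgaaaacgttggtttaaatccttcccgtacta
mt-Tw: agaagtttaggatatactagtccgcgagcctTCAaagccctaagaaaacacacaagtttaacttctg
mt-Td: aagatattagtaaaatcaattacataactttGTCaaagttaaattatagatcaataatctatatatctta
mt-Tr: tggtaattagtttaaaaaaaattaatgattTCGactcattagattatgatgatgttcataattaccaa
On the mitochondrial chromosome (M) they lie at chrM:2676-2750 (mt-Tl1), chrM:3772-3842 (mt-Tq, minus strand), chrM:3845-3913 (mt-Tm), chrM:4950-5016 (mt-Tw), chrM:6942-7011 (mt-Td) and chrM:9808-9875 (mt-Tr). mt-Tw shares 2 bases with the end of mt-Nd2 and mt-Tq shares 3 with mt-Ti. Whether the libraries kept strand is not given in the sources used here, so reads of overlapping genes on opposite strands, such as the 14 bases shared by mt-Nd5 and mt-Nd6, cannot be told apart. If strand was not kept, reads of the opposite precursor over the whole of a gene were also counted with that gene.

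The mitochondrial genes together held 20.4 to 32.9% of all TPM per mouse. Their share was 25.2 ± 3.45% (SD, n = 8) in WT vehicle mice, with a lowest of 20.4%, a median of 24.6% and a highest of 30.9%. It was 30.5 ± 1.45% (SD, n = 7, lowest 29.04, median 30.3 and highest 32.9%) in Brd1+/- vehicle mice, 29.8 ± 2.02% (SD, n = 8, lowest 26.2, median 30.4 and highest 32.1%) in WT IMN mice, and a median of 31.1% (SD 1.19, n = 8, 29.5 to 32.7%) in Brd1+/- IMN mice. The WT vehicle group had the lowest mean and the widest spread. The WT IMN range reached lower than those of both Brd1+/- groups, with 2 WT IMN mice (26.2 and 27.2%) below every Brd1+/- mouse. The 5.35 percentage points between the genotypes under vehicle (SE 1.34) and the 4.60 between IMN and vehicle in WT mice (SE 1.41) use the same 8 WT vehicle mice. Between the genotypes under IMN the share differed by 1.21 points (SE 0.83), and between IMN and vehicle in Brd1+/- mice by 0.46 (SE 0.69). No p is given for these sums, because the gene group was chosen with results of these data known.

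Within the WT vehicle group the share moved with the markers of the punch. Mice 6 and 8, with the low cortical marker level, had shares of 29.1 and 30.9%, and the other 6 mice had 20.4 to 25.9%, below every Brd1+/- vehicle mouse. Mice 6 and 8 also had the lowest astrocyte marker levels of the group, 5.31 and 5.30. Mouse 1, with the lowest share, had the highest astrocyte (6.70) and oligodendrocyte (9.92) levels. In WT IMN mice the lowest shares, 26.2 and 27.2%, belonged to mice 5 and 8, which had the highest cortical marker levels of that group, 5.50 and 4.92. In Brd1+/- IMN mice the mouse with the highest marker level, 4.32, had a share of 31.6%. The part of punch composition in the share was not tested.

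**Figure D2:**
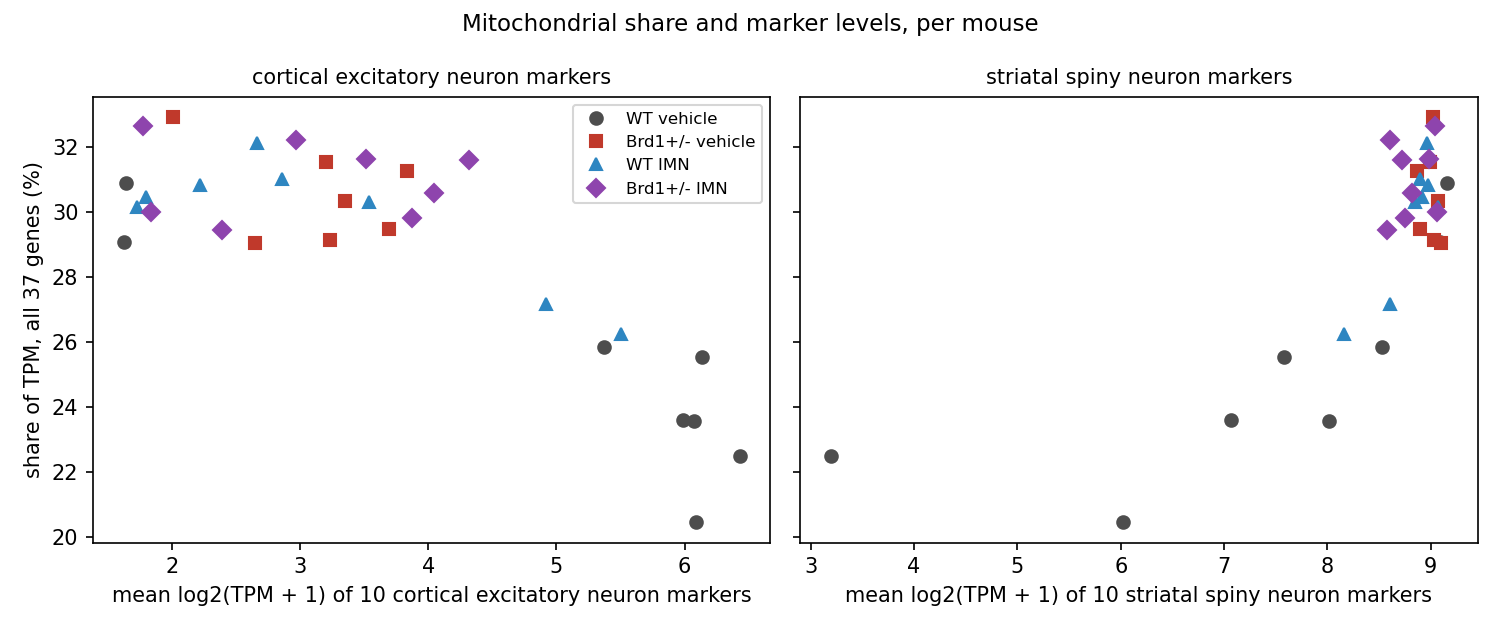
Share of TPM held by all 37 mitochondrial genes (vertical axis, %) against the mean log2(TPM + 1) of 10 cortical (left) and 10 striatal (right) neuron markers, 1 point per mouse, 4 groups by shape and color. The 6 WT vehicle mice with cortical levels of 5.37 or more have shares of at most 25.9%, and the 2 with levels near 1.6 lie among the other groups.

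The protein genes carried the difference in share. They held 22.9 ± 3.32% of TPM for WT vehicle, 28.1 ± 1.42% for Brd1+/- vehicle, 27.5 ± 1.98% for WT IMN and 28.7 ± 1.16% for Brd1+/- IMN (SD, n = 8, 7, 8 and 8), a difference of 5.18 points between the genotypes under vehicle. The 2 rRNA genes stayed within 1.18 to 1.29% as group means, with overlapping ranges. The tRNA genes held 0.963 ± 0.131, 1.11 ± 0.0661, 1.11 ± 0.0720 and 1.17 ± 0.0296% in the same order of groups. Protein gene TPM was a mean of 18.2 times that of the rRNA genes for WT vehicle (14.0 to 22.4), 21.9 times for Brd1+/- vehicle (18.4 to 25.02), 23.04 times for WT IMN (19.4 to 26.3) and 24.5 times for Brd1+/- IMN (19.6 to 26.6). This ratio does not depend on how TPM are scaled between mice. How rRNA was depleted, or mRNA selected, in these libraries is not given in the sources used here.

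**Figure D3:**
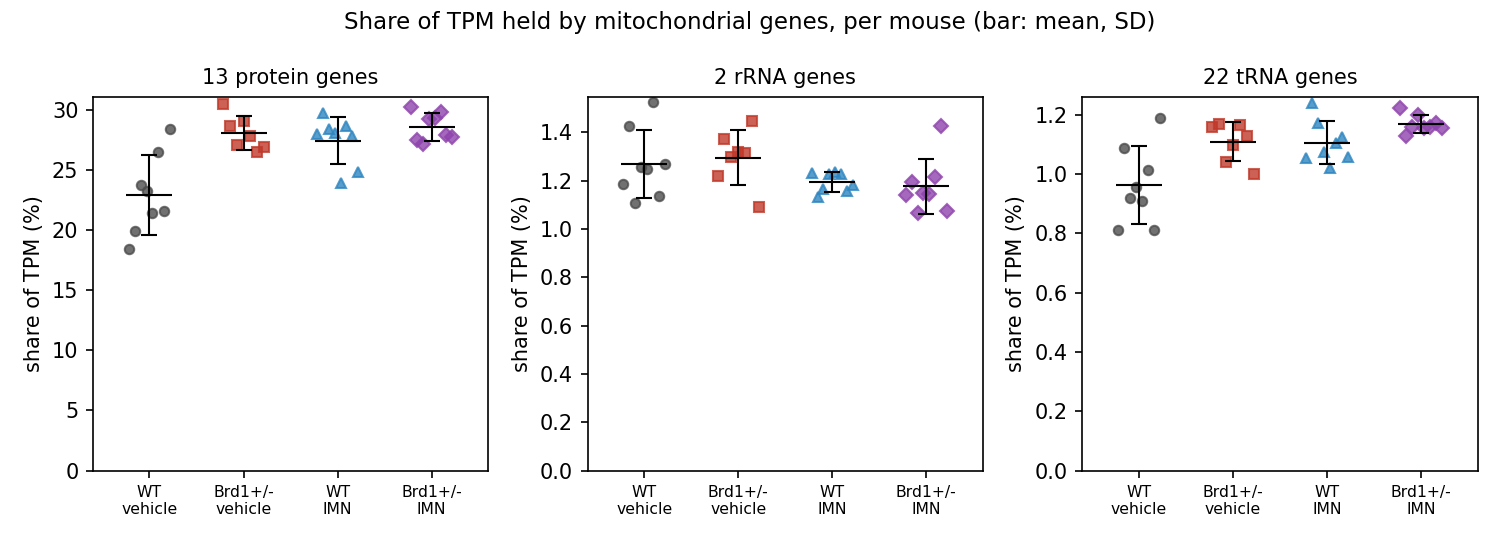
Share of TPM (%) held by the 13 protein, 2 rRNA and 22 tRNA genes, 1 point per mouse in the 4 groups, with mean and SD in black and axes from 0. The protein genes rest at 22.9% on average in WT vehicle mice against 27.5 to 28.7% in the other groups, and the rRNA shares overlap.

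The composition among the 13 protein genes, copies left out, also differed. The 7 complex I genes made up 40.1 ± 1.08% of protein gene TPM in WT vehicle mice (38.8 to 41.8%) and 42.5 ± 1.12% in Brd1+/- vehicle mice (41.0 to 44.5%), where 5 of 7 Brd1+/- mice lay above every WT mouse. Under IMN they made up 42.3 ± 0.841% in WT and 43.3 ± 1.38% in Brd1+/- mice. The 3 complex IV genes went the other way, at 29.1 ± 1.32, 26.8 ± 0.948, 27.1 ± 0.921 and 26.3 ± 0.872%. The complex III gene stayed at 11.9 to 12.2% and the 2 complex V genes at 18.4 to 18.7% as group means.

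The order of the protein gene levels was nearly the same in the 4 groups, with neighbors swapping places. mt-Co1, the catalytic subunit of complex IV, led with a mean of 32819 TPM over 31 mice (26537 to 35788), and mt-Cytb, the complex III subunit, followed with 32296 TPM (21707 to 37188). The 2 were not separated, since mt-Co1 was the higher in 17 of 31 mice. mt-Atp6 (30976 TPM), a subunit of the complex V proton channel, and mt-Nd1 (29855 TPM) of complex I came next, and mt-Atp6 lay above mt-Nd1 in 25 of 31 mice. mt-Co2 (23156), mt-Nd4 (20673), mt-Nd2 (19189), mt-Atp8 (18624), mt-Co3 (16844) and mt-Nd6 (15843 TPM) followed, where mt-Nd2 exceeded mt-Atp8 in 21 mice and mt-Co3 exceeded mt-Nd6 in 21. mt-Nd5 (12911), mt-Nd4l (11074) and mt-Nd3 (3319.6 TPM) came last by mean, and mt-Nd4l and mt-Nd3 were the lowest of the protein genes in every mouse. These levels leave out the TPM listed under the copies. With the copy added, mt-Atp6 (62939 TPM) lay above mt-Co1 (59792 TPM, whose copy covers part of the gene), and mt-Co2 (46406 TPM) lay above mt-Cytb and mt-Nd1, so the order holds only for the levels as listed. mt-Rnr1 (7164 TPM), the small ribosomal subunit RNA, lay above mt-Rnr2 (5153 TPM), the large one, in all 31 mice.

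Each gene was then compared between groups with limma on log2(TPM + 1), at p under 0.01 or at a false discovery rate (FDR) of 5%, adjusted over all genes tested, and all 37 mitochondrial genes passed the filter on low levels. Between Brd1+/- and WT mice under vehicle, 7 of 37 rose in Brd1+/- mice and 0 fell at p under 0.01, while of all 23200 genes 1.47% rose and 12.1% fell. The 7 were mt-Nd4l, mt-Nd5 and mt-Nd6 of complex I and mt-Tm, mt-Tw, mt-Td and mt-Tq. None passed FDR 5%, the smallest adjusted p of limma being 0.0556, nor did any other gene (0%). At an unadjusted p under 0.05, 14 of 37 rose and 1 fell, beside 4.68% and 26.2% of all genes. The log2 fold changes were above 0 for 30 of the 37, with a median of 0.24, or 0.31 over the protein genes, against −0.13 over all genes tested. With median-of-ratios scaling the median of all genes was −0.00 and that of the 37 was 0.42, with 34 above 0. In that scaling 9 rose and 0 fell at p under 0.01, beside 3.88% and 5.33% of all genes. With the cortical markers as a covariate, 1 rose (mt-Tw) and 0 fell, beside 0.142% and 2.16% of all genes, and the median of the 37 was 0.09. With each mouse left out, mt-Nd4l, mt-Tm, mt-Tw and mt-Td kept p under 0.01, and the other 3 lost it without some mice. Without WT mouse 8 the count was 12, all of them higher in Brd1+/- mice and all at FDR 5%, while 2.96% of all genes rose and 20.9% fell at FDR 5%. Without WT mouse 6 it was 9, all at FDR 5%, of which 8 rose and 1 fell (mt-Ty, −0.24, adjusted p = 0.0480), while 2.73% of all genes rose and 17.2% fell at FDR 5%. It was 5 without the Y-positive WT mouse 7 and 4 without WT mouse 1 or 5 or Brd1+/- mouse 2, 4 or 5, with none at FDR 5%. Over all genes, with each mouse left out, 0.747 to 2.74% rose and 8.00 to 19.7% fell at p under 0.01.

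Among complex I genes, mt-Nd4l, a small membrane subunit, ran from 4980 to 10688 TPM (median 8368) in WT vehicle mice and from 9620 to 13723 TPM (median 11538) in Brd1+/- vehicle mice. Of the Brd1+/- mice, 6 of 7 lay above every WT mouse. Its log2 fold change was 0.57 (SE 0.16, adjusted p = 0.0556), or 0.40 (adjusted p = 0.477) with the cortical covariate. Its copy Gm10222 is identical over 294 bases and has its own listed TPM, so this value cannot be separated between the gene and the copy. Of the WT mice low in cortical markers, mouse 6 had an mt-Nd4l level of 8540 TPM, near the WT median, and mouse 8 had 10688 TPM, the highest of the WT vehicle group.

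mt-Nd5, a proton-pumping subunit, ran from 6517 to 11992 TPM (median 9604) in WT and from 10524 to 15526 TPM (median 13633) in Brd1+/- mice under vehicle. Its log2 fold change was 0.48 (SE 0.15, adjusted p = 0.0658). mt-Nd6, the only protein gene on the opposite strand, ran from 10164 to 17452 TPM (median 12296) in WT and from 14215 to 18453 TPM (median 17196) in Brd1+/- mice, and 7 of 8 WT mice lay below every Brd1+/- mouse. Its log2 fold change was 0.41 (SE 0.14, adjusted p = 0.0681). mt-Nd6 shared no stretch of 50 bases with an annotated nuclear transcript, and mt-Nd5 shared 7.61% of its stretches.

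The other complex I genes did not pass. Their log2 fold changes were 0.41 for mt-Nd2 (adjusted p = 0.0785), 0.37 for mt-Nd4 (adjusted p = 0.102), 0.30 for mt-Nd1 (adjusted p = 0.189) and 0.22 for mt-Nd3 (adjusted p = 0.241). mt-Cytb of complex III had 0.31 (SE 0.16, adjusted p = 0.202), with 21707 to 35943 TPM in WT and 32338 to 37188 TPM in Brd1+/- mice. In complex V, mt-Atp8 had 0.34 (adjusted p = 0.147) and mt-Atp6 had 0.28 (adjusted p = 0.232). The complex IV genes had the smallest values of the protein genes, apart from mt-Nd3, at 0.24 for mt-Co2 (adjusted p = 0.274), 0.20 for mt-Co3 (adjusted p = 0.326) and 0.14 for mt-Co1 (SE 0.14, adjusted p = 0.509). For mt-Co1 the WT mice ran from 26537 to 34521 TPM and the Brd1+/- mice from 31298 to 34709 TPM, overlapping widely.

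Neither rRNA gene passed the test between the genotypes under vehicle. mt-Rnr1 was 7587 ± 893 TPM in WT and 7560 ± 738 TPM in Brd1+/- mice (SD, n = 8 and 7), with a log2 fold change of −0.00 (SE 0.11), which became 0.19 under median-of-ratios scaling. mt-Rnr2 was 5106 ± 554 and 5379 ± 410 TPM, with 0.08 (SE 0.10), or 0.27 under that scaling (adjusted p = 0.260). Neither had a p under 0.01 under either scaling.

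Of the 22 tRNA genes 4 rose and 0 fell. mt-Tm ran from 597 to 1311 TPM (median 865) in WT and from 1004 to 1506 TPM (median 1324) in Brd1+/- mice under vehicle, and 7 of 8 WT mice lay below every Brd1+/- mouse. Its log2 fold change was 0.54 (SE 0.14, adjusted p = 0.0556). mt-Tw, next to it across mt-Nd2, ran from 123 to 186 TPM (median 160) in WT and from 174 to 234 TPM (median 200) in Brd1+/- mice, with 0.34 (SE 0.09, adjusted p = 0.0556). Neither set of ranges was free of overlap, and of the 7 genes called in this comparison only mt-Tw kept its call in all 23 settings run, including the cortical covariate (0.37, adjusted p = 0.349) and each mouse left out.

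mt-Td, between mt-Co1 and mt-Co2, ran from 39.2 to 88.3 TPM (median 49.0) in WT and from 66.1 to 95.5 TPM (median 79.3) in Brd1+/- mice. Its highest WT values, 77.7 and 88.3 TPM, were those of mice 6 and 8. Its log2 fold change was 0.55 (SE 0.16, adjusted p = 0.0556) and 0.22 (adjusted p = 0.5256) with the cortical covariate. mt-Tq ran from 289 to 509 TPM (median 367) in WT, where mouse 8 was highest, and from 411 to 524 TPM (median 470) in Brd1+/- mice, with 0.35 (SE 0.11, adjusted p = 0.0621).

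Of the 7 genes with log2 fold changes below 0, 3 stand side by side on the opposite strand: mt-Tn (−0.12), mt-Tc (−0.09) and mt-Ty (−0.19, adjusted p = 0.156), the tRNA genes for asparagine, cysteine and tyrosine. Under median-of-ratios scaling, which raised the median of the 37 as given above, they were 0.07, 0.10 and −0.00. The other 4 were mt-Rnr1, mt-Tv (−0.11), mt-Th (−0.55, adjusted p = 0.261) and mt-Ts2 (−0.69, adjusted p = 0.311). mt-Ts2, the least abundant member, was 1.27 to 3.70 TPM in 7 WT vehicle mice and 35.2 TPM in mouse 6, and without that mouse its log2 fold change was −0.25 (adjusted p = 0.313). Summed by annotated strand, which the reads may not keep, the tRNA genes on the strand of most protein genes held 2820 ± 569 TPM in WT and 3609 ± 300 TPM in Brd1+/- mice, and those on the opposite strand held 6804 ± 1020 and 7481 ± 461 TPM.

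**Figure D4:**
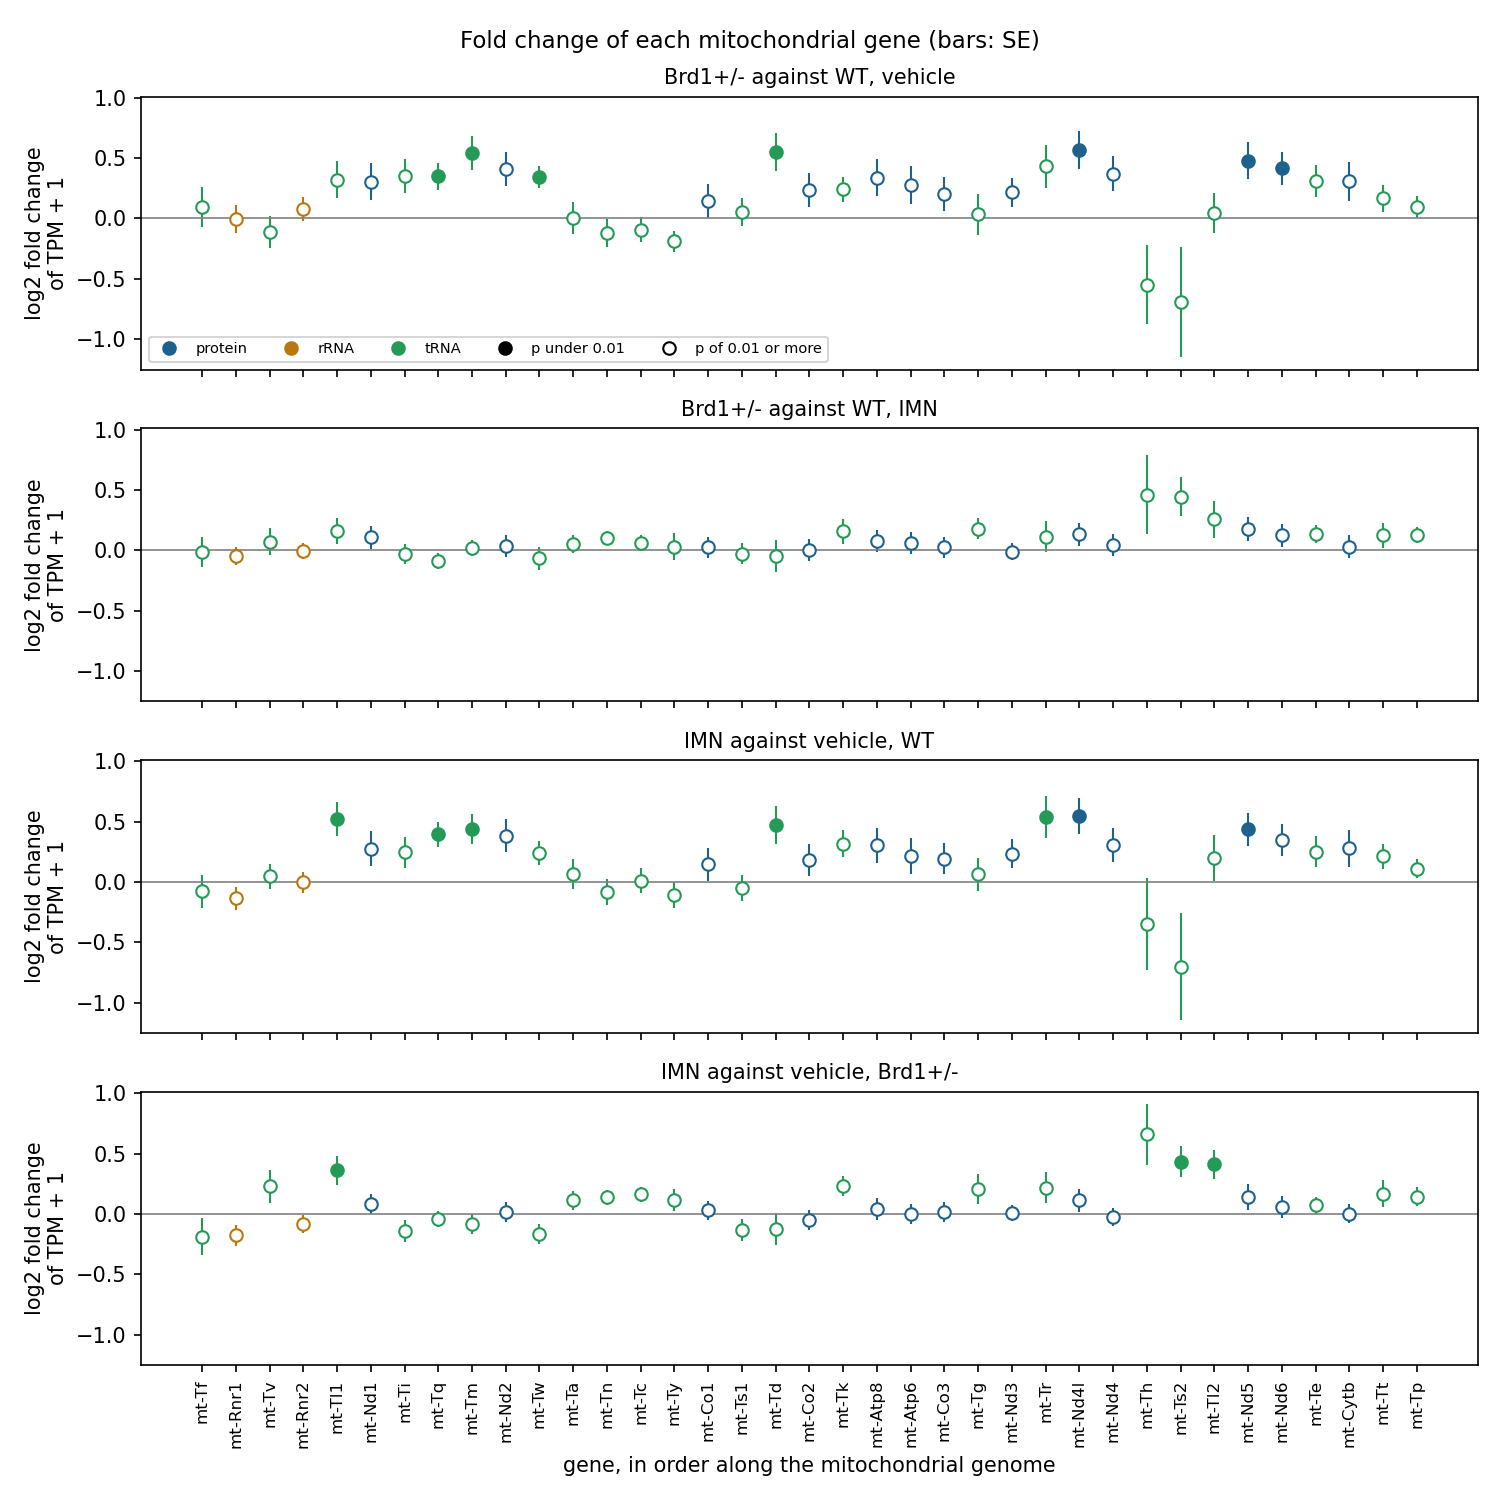
Log2 fold change of TPM + 1 with SE for each of the 37 genes in order along the mitochondrial genome (horizontal axis), in 4 comparisons, with colors for protein, rRNA and tRNA genes and filled points at p under 0.01. Under vehicle 7 points are filled, all above 0, under IMN none, for IMN in WT mice 7 and for IMN in Brd1+/- mice 3.

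Under IMN the genotypes differed less than under vehicle in the share of all 37 genes and in the protein genes. Of the 37 genes, 0 had p under 0.01 in limma, while 0.189% of 23339 genes rose and 0.514% fell, and 1 gene rose at an unadjusted p under 0.05 (mt-Ts2, log2 fold change 0.44, adjusted p = 0.998), beside 1.02% of all genes that rose and 2.90% that fell. The count at p under 0.01 was 1, higher in Brd1+/- mice, without WT mouse 2, 3 or 6, where at most 0.194% of all genes rose. No mitochondrial gene passed FDR 5%, while 0.00428% of all genes, namely Brd1, did. The median log2 fold change of the 37 was 0.06 against −0.03 over all genes, with 28 above 0 and 9 below. For the protein genes the median was 0.04, against 0.31 under vehicle, and for the tRNA genes 0.086, against 0.095. The tRNA share was 0.0619 points higher in Brd1+/- mice (SE 0.0275). Of the WT IMN mice, 6 of 8 had a tRNA share below every Brd1+/- IMN mouse and 1 had a share above all of them. mt-Nd4l was 9604 to 12872 TPM (median 11911) in WT and 10148 to 14258 TPM (median 13244) in Brd1+/- mice, with 0.13 (SE 0.09, adjusted p = 0.998), and 5 of 8 Brd1+/- mice lay above every WT mouse. mt-Nd5 had 0.18, mt-Nd6 0.12, mt-Nd1 0.11, mt-Atp8 0.08, mt-Atp6 0.06, mt-Nd4 and mt-Nd2 0.04, mt-Cytb, mt-Co1 and mt-Co3 0.03, mt-Co2 0.00 and mt-Nd3 −0.01, all with an adjusted p of 0.998 or more. mt-Rnr1 had −0.05 and mt-Rnr2 −0.00. Nor did the genes called under vehicle pass here, with mt-Tm at 0.02 (SE 0.07), mt-Tw at −0.07 (SE 0.10), mt-Td at −0.05 (SE 0.13) and mt-Tq at −0.09 (SE 0.06). A value that misses the threshold does not show that the genotypes were equal.

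From vehicle to IMN in WT mice, which uses the WT vehicle group again, 7 of 37 rose and 0 fell at p under 0.01, while 1.35% of 23579 genes rose and 5.60% fell. These were mt-Nd4l and mt-Nd5 and the tRNA genes mt-Tq, mt-Tl1, mt-Tm, mt-Tr and mt-Td. None of the 37 passed FDR 5%, as 0.00424% of all genes did, and the smallest adjusted p of limma was 0.141. At an unadjusted p under 0.05, 13 rose and 0 fell, beside 5.17% and 18.0% of all genes. The median log2 fold change was 0.21, and 0.28 for the protein genes, against −0.08 over all genes. With the cortical covariate the count was 1 (mt-Nd4l, 0.38, adjusted p = 0.650), which rose, beside 0.530% of all genes that rose and 0.950% that fell. It was 10 without vehicle mouse 8, with 9 at FDR 5%, where 1.42% of all genes rose and 9.09% fell. It was 9 without vehicle mouse 6, with 5 at FDR 5%, where 0.855% of all genes rose and 4.17% fell. It was 4 without vehicle mouse 5 or 7 or IMN mouse 2 or 7, with none at FDR 5%. Over all genes, with each mouse left out, 0.898 to 2.58% rose and 2.98 to 12.9% fell at p under 0.01.

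mt-Nd4l rose from the WT vehicle values given above to 9604 to 12872 TPM, where 6 of 8 IMN mice exceeded every vehicle administered one, with a log2 fold change of 0.55 (SE 0.15, adjusted p = 0.141). mt-Nd5 rose to 10769 to 14717 TPM (median 13384), with 0.44 (SE 0.14, adjusted p = 0.141). mt-Nd2 (0.39, adjusted p = 0.148), mt-Nd6 (0.35, adjusted p = 0.152), mt-Nd4 (0.30, adjusted p = 0.207) and mt-Atp8 (0.30, adjusted p = 0.215) had unadjusted p between 0.01 and 0.05. mt-Nd1 (0.28), mt-Cytb (0.28), mt-Nd3 (0.24), mt-Atp6 (0.21), mt-Co3 (0.20), mt-Co2 (0.18) and mt-Co1 (0.15) had p over 0.05.

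mt-Tl1, the leucine tRNA gene between mt-Rnr2 and mt-Nd1, ran from 797 to 1768 TPM (median 1058) in vehicle and from 1217 to 1972 TPM (median 1564) in WT IMN mice. It was high among WT vehicle mice in mouse 8 alone, and 7 of 8 of them lay below every IMN mouse. Its log2 fold change was 0.52 (SE 0.14, adjusted p = 0.141). mt-Tr, just before mt-Nd4l, went from 39.8 to 118 TPM (median 63.1) to 65.6 to 111 TPM (median 98.4), with 0.54 (SE 0.17, adjusted p = 0.141). mt-Tq, mt-Tm and mt-Td had 0.40, 0.44 and 0.47, each with an adjusted p of 0.141. mt-Rnr1 and mt-Rnr2 had −0.13 (adjusted p = 0.415) and −0.00 (adjusted p = 0.992), again with no call.

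**Figure D5:**
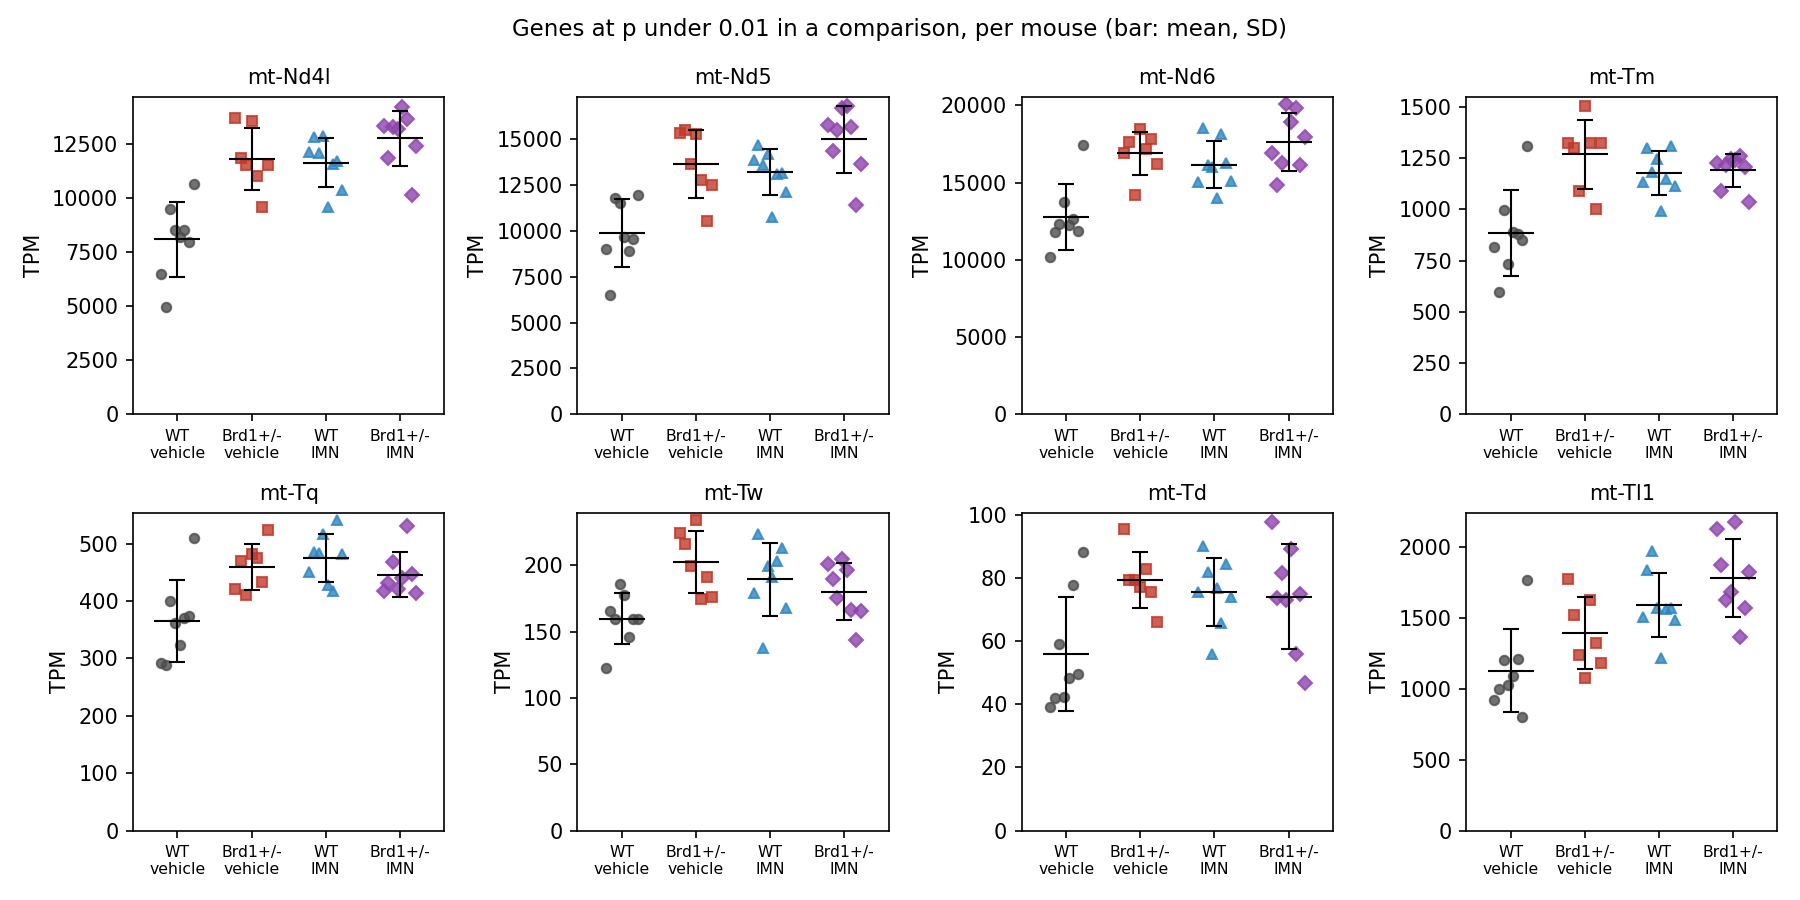
TPM of 8 genes at p under 0.01 in a comparison with WT vehicle mice, 1 point per mouse in 4 groups, mean and SD in black, axes from 0. The WT vehicle mice are lowest on average in all 8 panels, which follows in part from how the genes were chosen. They overlap the other groups, with mt-Nd4l means of 8113 TPM against 11660 to 12780 TPM.

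From vehicle to IMN in Brd1+/- mice, 3 of 37 rose and 0 fell at p under 0.01, while 0.869% of 23020 genes rose and 0.964% fell. All 3 were tRNA genes, and no protein or rRNA gene was called. None passed FDR 5% (0% of all genes did), with a smallest adjusted p of 0.441 in limma. At an unadjusted p under 0.05, 7 rose and 0 fell, beside 3.67% and 3.42% of all genes. The count at p under 0.01 was 1 without vehicle mouse 7, where 0.904% of all genes rose. mt-Tl2, a leucine tRNA gene, ran from 26.4 to 50.6 TPM (median 39.0) under vehicle and from 42.0 to 63.6 TPM (median 51.3) under IMN, with a log2 fold change of 0.41 (SE 0.12, adjusted p = 0.441). mt-Ts2, which shares a base with it, ran from 1.22 to 2.54 and from 1.98 to 3.50 TPM, with 0.43 (SE 0.13, adjusted p = 0.455), at levels where the pseudocount of 1 shrinks the fold. mt-Tl1 ran from 1074 to 1771 and from 1366 to 2171 TPM, with 0.36 (SE 0.12, adjusted p = 0.5265), the only gene called in both IMN comparisons. In Brd1+/- mice that call was lost in 12 of 23 refits, and none of the 3 calls held in 1 fit of all 4 groups. The protein genes had a median of 0.02, from −0.05 (mt-Co2) to 0.14 (mt-Nd5), and mt-Rnr1 had −0.18 (adjusted p = 0.704).

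The difference between the genotypes in the response to IMN was tested as an interaction over all 31 mice. At p under 0.01, 0 of 37 were higher and 4 lower, against 2.97% of 25394 genes higher and 0.780% lower, and none passed FDR 5% (0% of all genes did). At an unadjusted p under 0.05, 2 were higher and 8 lower, beside 12.5% and 3.68% of all genes. The count at p under 0.01 was 7, all lower, without WT vehicle mouse 8, where 8.37% of all genes were higher and 1.78% lower. It was 3 without WT vehicle mouse 7 (2.01% and 0.855% of all genes) and 2 without Brd1+/- vehicle mouse 4 (2.08% and 0.608%). The 4 were mt-Tq (−0.44, SE 0.12), mt-Tm (−0.53, SE 0.15), mt-Tw (−0.41, SE 0.13) and mt-Td (−0.60, SE 0.21), each with an adjusted p of 0.261. mt-Td lost p under 0.01 in 24 of 38 refits, mt-Tw in 1, and mt-Tq and mt-Tm in 0. For each of the 4 genes, the mean of WT vehicle mice was the lowest of the 4 groups. mt-Nd4l had −0.44 (adjusted p = 0.263) and mt-Nd2 had −0.37 (adjusted p = 0.267). mt-Tq, mt-Tm and mt-Tw kept p under 0.01 with the cortical covariate (−0.33, −0.39 and −0.41), where mt-Ts2 was also called, at 1.54 (adjusted p = 0.851). Without the covariate the mt-Ts2 interaction was 1.14 (adjusted p = 0.274), and 0.70 (adjusted p = 0.0967) without WT vehicle mouse 6, whose mt-Ts2 level stood apart.

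Among the nuclear genes that serve the mitochondrial genome, as among all genes, most calls in the comparisons with WT vehicle mice were lower. Of 34 nuclear-encoded subunits that assemble with the 13 proteins, 0 rose and 4 fell in Brd1+/- mice under vehicle (median −0.23), among them Uqcrfs1 (−0.29, adjusted p = 0.0556) and Uqcrc1 (−0.30, adjusted p = 0.0574) of complex III and Cox8a (−0.39, adjusted p = 0.0556) of complex IV. A list of 78 genes was taken by symbol alone (Mrpl and Mrps), and whether each product belongs to the mitochondrial ribosome was not checked. Of these, called ribosome protein genes here, 0 rose and 13 fell (median −0.19), led by Mrps18b (−0.50, adjusted p = 0.0556), Mrpl49 (−0.29, adjusted p = 0.0556) and Mrps36 (−0.41, adjusted p = 0.0556). These counts stand beside the 12.1% of all genes that fell and a median of −0.13. Of 22 genes for transcription and replication of mitochondrial DNA 1 rose, Mterf2 (0.41, adjusted p = 0.0613), a transcription termination factor family member, and 1 fell, Top1mt (−0.42, adjusted p = 0.0579), the mitochondrial topoisomerase. Of 26 tested genes for RNA processing and stability 3 fell: Rexo2 (−0.22, adjusted p = 0.0652), an oligoribonuclease, Elac2 (−0.30, adjusted p = 0.0653), which cuts tRNA 3′ ends, and Ptcd2 (−0.27, adjusted p = 0.0685). Of 10 biogenesis factors 1 fell, Yy1 (−0.23, adjusted p = 0.0701).

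The other comparisons gave these counts. From vehicle to IMN in WT mice 11 of the 34 partner subunits fell (median −0.25), led by Atp5g1 (−0.87, adjusted p = 0.141), Cox5b (−0.37, adjusted p = 0.141) and Atp5g3 (−0.26, adjusted p = 0.141), beside 5.60% of all genes, and 0 rose. In the same comparison 7 of 78 ribosome protein genes fell (median −0.16), led by Mrpl20 (−0.38, adjusted p = 0.141), Mrps6 (−0.36, adjusted p = 0.141) and Mrpl34 (−0.45, adjusted p = 0.141), and Polrmt (−0.38, adjusted p = 0.143), the mitochondrial RNA polymerase, and Esrrg (−0.68, adjusted p = 0.132), a nuclear receptor of oxidative metabolism, fell as well. Under IMN, where 0.514% of all genes fell in Brd1+/- mice, 1 ribosome protein gene did (Mrps35, −0.31, adjusted p = 0.998), and from vehicle to IMN in Brd1+/- mice no gene of the 5 lists had p under 0.01. In the interaction, where 2.97% of all genes were higher, Polg (0.36, adjusted p = 0.261), the mitochondrial DNA polymerase, Mrm1 (0.78, adjusted p = 0.261), an rRNA methyltransferase, and 5 of 78 ribosome protein genes were higher, led by Mrps18b (0.47, adjusted p = 0.261), Mrpl41 (0.39, adjusted p = 0.261) and Mrpl49 (0.29, adjusted p = 0.261). None of these genes passed FDR 5%.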

How the data were processed

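Libraries from CPu punches of 31 mice were read as single ends of 50 bases (BGISEQ-500). The authors aligned the reads with HISAT2 2.1.0 to GRCm38, counted with StringTie 1.3.4 and deposited TPM, the only unit used here. Groups were taken from the sample labels. TPM summed to 999787 to 999918 per mouse and keep no depth, so precision rests on the spread between mice. That each mouse is a separate biological sample was taken from the labels.

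Each pair of groups was fitted alone with limma 3.58.1 (R 4.3.3, log2(TPM + 1), empirical Bayes with trend, two-sided) on genes whose level passed 0.1 TPM in 7 or more fitted mice, with Benjamini-Hochberg adjustment over all genes tested. The interaction used all mice. The authors' edgeR test needs counts and was not run. Shared stretches of 50 bases were searched among GENCODE M21 transcripts of genes in the table, since no genome sequence was used here.

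All protein and rRNA genes are named with values, tRNA genes by count or by name, and up to 3 genes with the smallest p per nuclear list and comparison. The members and lists were chosen with earlier results of these data known. Alternatives were another pseudocount, other filters, median-of-ratios scaling, rescaling to nuclear genes, the mouse number as a block, the cortical markers as a covariate, 1 fit of all 4 groups and each mouse left out.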

Additional observations from a re-analysis of the deposited data

Results flagged for a closer look

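Single mice stood apart from their group in 15 of 164 sets of values examined (37 genes and 4 shares in 4 groups, highest or lowest mouse far from the rest relative to the range). For independent, normally distributed sets chance gives such a gap in about 1 in 20. These sets are not independent, since the shares are sums of the same genes and several flags fall on the same mouse. No excess over chance is read from the count. Among vehicle administered WT mice, mouse 2 was high for mt-Tf (95.5 TPM, others at most 64.4), mt-Ta (756 TPM, at most 524) and mt-Tn (504 TPM, at most 378), mouse 8 for mt-Tl1 (1768 TPM, at most 1209) and mouse 6 for mt-Ts2 (35.2 TPM, at most 3.70). Among vehicle administered Brd1+/- mice, mouse 1 was high for mt-Co3 (18885 TPM, others at most 17393) and mouse 6 for mt-Tg (87.2 TPM, at most 59.6).

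Among IMN administered WT mice, mouse 5 was low for mt-Co1 (29799 TPM, others at least 32846) and mt-Tr (65.6 TPM, at least 91.6), the mouse with the highest cortical marker level of its group. Among IMN administered Brd1+/- mice, mouse 7 was high for mt-Rnr1 (8172 TPM, others at most 6806), mt-Co3 (21621 TPM, at most 18560) and the rRNA share (1.43%, at most 1.22%), mouse 1 for mt-Nd1 (36460 TPM, at most 33125) and mouse 6 for mt-Tq (530 TPM, at most 468), and mouse 5 was low for mt-Ts1 (970 TPM, others at least 1252).

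The effect of IMN differed between the genotypes at p under 0.01 (limma interaction) for mt-Tq (−0.44), mt-Tm (−0.53), mt-Tw (−0.41) and mt-Td (−0.60 on the log2 scale), each with an adjusted p of 0.261, and mt-Td lost p under 0.01 in 24 of 38 refits.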

How the results depend on the processing

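The share differences kept their direction in all settings run. None of these settings adjusted the share for the cortical markers, and leaving out 1 mouse keeps most WT vehicle mice that were high in them. With each mouse left out in turn, the difference was 4.67 to 6.17 points between the genotypes under vehicle and 0.709 to 1.55 under IMN. It was 3.92 to 5.42 for IMN in WT mice, 0.216 to 0.865 for IMN in Brd1+/- mice and −4.95 to −3.46 for the difference of differences. Adding every annotated gene with a shared stretch of 50 bases, an alternative chosen after seeing the data, gave 7.73, 1.65, 6.55, 0.473 and −6.08 points in the same order. Counts of mitochondrial genes at p under 0.01 moved more, and so did those of all genes, whose shares that rose and fell stand in parentheses. Under vehicle the 7 (1.47% and 12.1%) became 4 without a filter (0.980% and 8.62%), 1 with the cortical covariate (0.142% and 2.16%) and 12 in 1 fit of all groups (2.76% and 17.0%), and 4 to 12 with a mouse left out. For IMN in WT mice the 7 (1.35% and 5.60%) became 4 with the replicate block (1.58% and 3.50%), 1 with the cortical covariate (0.530% and 0.950%) and 11 in 1 fit of all groups (2.49% and 11.0%), and 4 to 10 with a mouse left out. For IMN in Brd1+/- mice the 3 (0.869% and 0.964%) became 5 with the replicate block (1.04% and 1.12%) and 0 in 1 fit of all groups (0.520% and 0.646%), and 1 to 4 with a mouse left out. The interaction gave 2 to 7 and the genotypes under IMN 0 to 1 with a mouse left out. At FDR 5% under vehicle, 0 genes became 12 in 1 fit of all groups (2.72% and 16.8%), 8 with a mean TPM of at least 1 (0.715% and 9.77%) and 8 with the replicate block (2.08% and 13.4%). For IMN in WT mice 0 became 10 in 1 fit of all groups (1.51% and 7.51%). The cause was not tested. Refits of the called genes kept p under 0.01 in 425 cases and lost it in 125, and none changed direction. Mouse numbers were not taken as pairs: correlations of same-numbered mice ran from −0.447 to 0.495. The same-numbered mouse was the best match for 3 of 7 mice for IMN in Brd1+/- mice and 1 of 8 between the genotypes under IMN. It was the best match for 0 mice in both comparisons with WT vehicle mice. With the block 9 genes had p under 0.01 under vehicle, 8 higher and 1 lower (2.50% and 15.2%), among them 5 of the 7. Mouse 8 has no partner among Brd1+/- vehicle mice, so the block leaves it out of both comparisons with that group. TPM hold no depth.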
